A study of Bos taurus with 20 samples.

Results

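The genes described here are 10 genes of the endoplasmic reticulum (ER) and its stress response, HSPA5, HSP90B1, CALR, PDIA3, PDIA4, DNAJB9, HERPUD1, XBP1, ATF4, and DDIT3, out of 22548 genes or transcripts on a custom bovine Agilent microarray. They were selected on their difference between cumulus cells (CC) after in vitro maturation (IVM) and immature CC, which is therefore described here without a test. A gene was taken when the gene name of its probes, without the ending that numbers the transcript, was one of these symbols. By that rule 8 genes were found, and the other 2 are listed under older names, HSPA5 as GRP78 and PDIA4 as ERP70. Each gene has 2 probes of 60 bases, 20 in all.

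The arrays came from antral follicles of 3 to 6 mm of bovine ovaries collected after slaughter. There were 4 arrays each of theca cells (TH, scraped from the follicle wall), granulosa cells (GC), CC, and oocytes (OO), all at the immature stage, and 4 of CC detached from cumulus–oocyte complexes after 4 h of IVM. Replicates are numbered 1 to 4 in each group, and neither the labels nor the methods give the age of the animals, how many were pooled in a replicate, or the medium of these 4 h cultures. Each value is the log2 processed spot intensity, median over the probes of a gene, from which the array's own 75th percentile was subtracted, so that 0 is the level of that percentile. Values are compared between arrays for 1 gene at a time and not between genes.

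On the arrays, 49.3 to 68.8% of the probes were above background, with the lowest share on OO replicate 2. The mean of ACTA2, COL1A1, COL1A2, CYP17A1, and INSL3 (theca) was highest in TH and that of NLRP5, GDF9, BMP15, and the zona genes ZP2, ZP3, and ZP4 (oocyte) was highest in OO. The granulosa markers FSHR, CYP19A1, AMH, and INHBA did not single out GC, since their summed level was 6.79 to 8.82 in GC, 8.57 to 8.62 in CC, and 9.29 to 9.59 in CC after IVM, above TH (4.18 to 5.06) and OO (1.14 to 1.60). The sums were taken over intensities before the log, and INHBA (mean 8.31 in CC and 9.39 after IVM) made up most of them. INSL3 was above background on all 4 arrays of every group, and ZP3 and BMP15 were as well. Of 6 genes of cumulus expansion, HAS2, TNFAIP6, AREG, and EREG were higher after IVM by limma, and AREG and EREG were above background on no CC array and on all 4 after IVM, at least 15.4-fold and 8.12-fold higher. All 4 arrays of CC after IVM lay on 1 slide that held no other group, so the slide and the culture cannot be told apart. Replicates 1 and 3 of every group were in one row of array positions and replicates 2 and 4 in the other, and differences are therefore also given within each row.

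The ER folds secreted and membrane proteins. When unfolded proteins build up there, 3 sensors respond. IRE1 (ERN1) splices the mRNA of the transcription factor XBP1, PERK (EIF2AK3) slows translation while favouring that of ATF4, which in turn induces CHOP (DDIT3), and ATF6 is cut by the proteases MBTPS1 and MBTPS2 to free a transcription factor. The targets of these factors are chaperones, disulfide isomerases, and genes of ER-associated degradation (ERAD). Other kinases reach ATF4 as well, and the wider route is called the integrated stress response (ISR). In the follicle, granulosa and cumulus cells secrete hormones and, after the ovulatory stimulus, a hyaluronan matrix, while the growing oocyte secretes its zona pellucida. The arrays measure total mRNA of each gene, and the spliced form of XBP1 was not measured.

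For some of the genes the probes are shown, because 2 probes that share no run of 8 bases measure the same mRNA at separate places. The pair for HSPA5 belongs to the gene with one of the largest differences after IVM, the pair for HERPUD1 to a gene whose groups overlapped, and the probe for DDIT3 to a gene that was higher in OO. They are printed 5′ to 3′ as designed, in lower case throughout since no position is singled out.
HSPA5, first probe: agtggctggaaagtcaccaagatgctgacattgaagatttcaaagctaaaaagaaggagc
HSPA5, second probe: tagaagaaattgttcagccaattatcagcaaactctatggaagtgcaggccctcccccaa
HERPUD1, first probe: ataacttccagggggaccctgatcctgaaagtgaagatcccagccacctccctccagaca
HERPUD1, second probe: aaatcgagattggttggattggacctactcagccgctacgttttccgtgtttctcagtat
DDIT3, second probe: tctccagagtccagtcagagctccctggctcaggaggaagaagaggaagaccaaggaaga

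The first HSPA5 probe gave a difference after IVM of 2.86 and the second 2.67. The HERPUD1 probes gave -0.14 and -0.08, and the DDIT3 probes 2.13 and 2.25. The probes of a gene thus differed far less in this contrast than the genes did. The pairs for HSP90B1, CALR, and PDIA3 share runs of 48, 49, and 30 bases and are not independent of each other. The transcripts lie, on bovine assembly UMD 3.1, at chr11:96115572-96119306 for HSPA5, chr18:25048853-25059249 for HERPUD1, and chr5:56285008-56289214 for DDIT3. Promoters were not analysed here.

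After 4 h of IVM, 8 of the 10 genes were higher on every array than on any array of immature CC, by 1.38 (CALR) to 2.84 (DNAJB9), or 2.61-fold to 7.16-fold. PDIA3 and HERPUD1 were not, and their groups overlapped. The groups of HSP90B1 and CALR overlapped after quantile normalization, which left 6 genes, and those of DDIT3 with the deposited table of the authors, which left 7. Of all 22548 genes, 29.1% were higher without overlap in this way and 14.9% were lower, and of the 12835 genes above background on at least 3 arrays of both groups 22.6% and 21.9% were. The genes were chosen for this contrast, so nothing is read from their share. The median difference over the 10 genes was 2.08, against 0.37 over all genes. In bulk samples, more mRNA per cell and a changed mix of cells cannot be told apart.

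**Figure D1:**
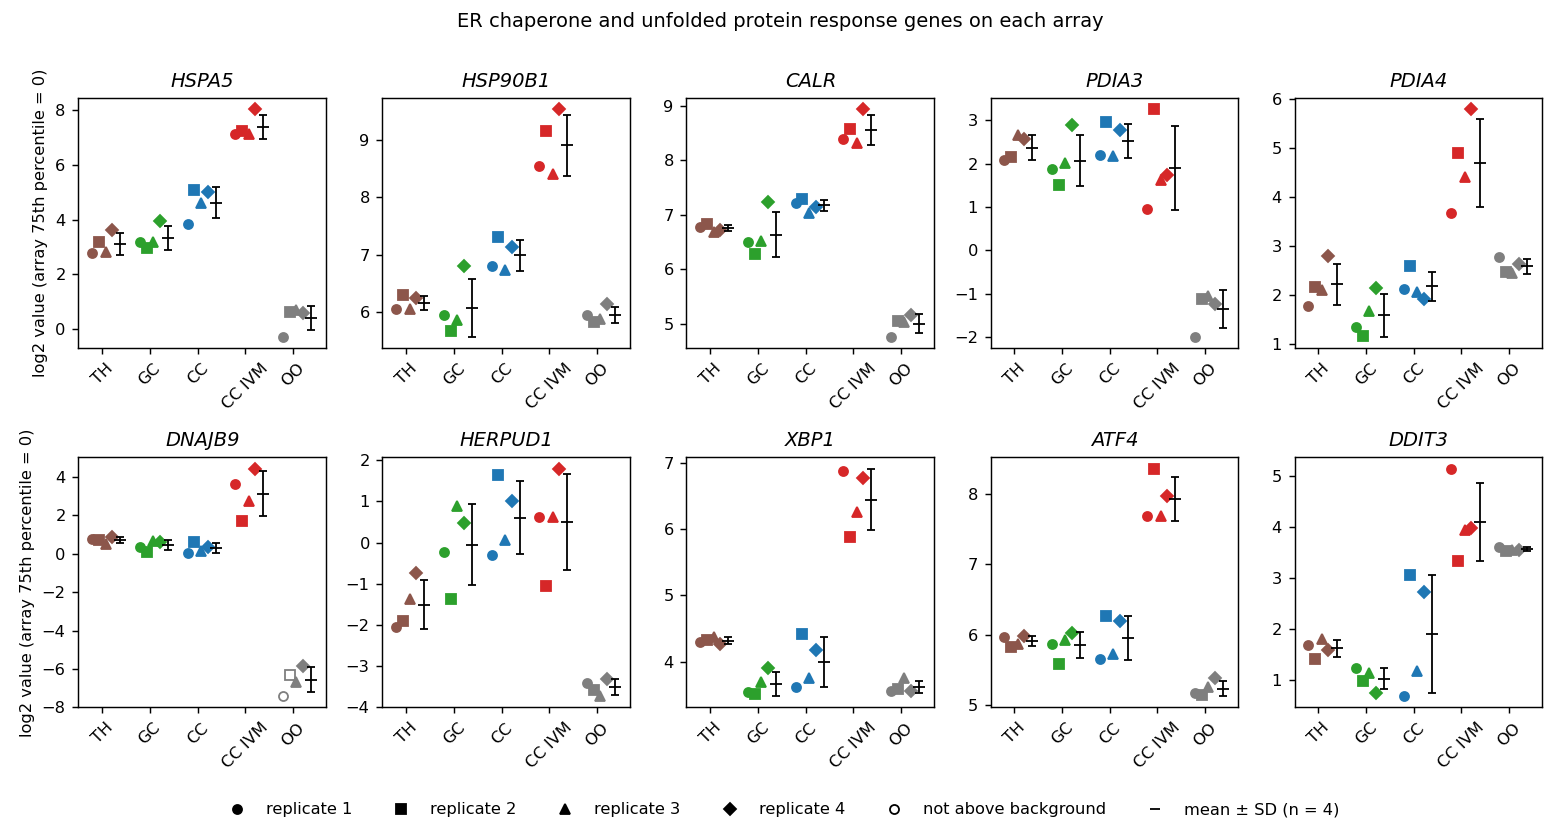
Value of each of the 10 genes on each of the 20 arrays, on the log2 scale with the 75th percentile of each array at 0, with 1 panel per gene and its own axis, a symbol for each replicate, and the mean ± SD (n = 4) beside each group. In 8 panels the arrays of CC after IVM lie above all arrays of CC, and in the panels of PDIA3 and HERPUD1 they overlap. The DNAJB9 panel shows OO far below the other groups, with 2 OO arrays not above background.

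Among the chaperones, HSPA5 (BiP, the Hsp70 of the ER lumen, which also holds the sensors inactive) was at 3.82, 5.08, 4.59, and 4.99 on the CC arrays and at 7.12, 7.25, 7.13, and 8.04 after IVM. The lowest array after IVM lay 2.04 above the highest CC array. The mean went from 4.62 ± 0.58 (SD, n = 4) to 7.39 ± 0.44, a difference of 2.77, or 6.8-fold. It was 2.92 within row 1 and 2.61 within row 2.

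HSP90B1 (GRP94, the Hsp90 of the ER) was at 6.81, 7.30, 6.73, and 7.13 in CC and at 8.54, 9.14, 8.40, and 9.53 after IVM. Its difference was 1.91, or 3.75-fold, with the groups 1.10 apart, and after quantile normalization it was 1.11 and the groups overlapped. CALR (calreticulin, a lectin chaperone that retains glycoproteins until they are folded) had the tightest groups, 7.18 ± 0.11 (SD, n = 4) in CC and 8.56 ± 0.27 after IVM. Its difference was the smallest of the 8, 1.38, and dropped to 0.65 after quantile normalization, with overlapping groups. All 3 chaperones were highest on replicate 4 after IVM.

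The disulfide isomerases, which form and rearrange disulfide bonds in the ER, went different ways. PDIA4 (ERp72) was at 2.13, 2.59, 2.06, and 1.92 in CC and at 3.67, 4.89, 4.41, and 5.79 after IVM, a difference of 2.51, or 5.71-fold. Its arrays after IVM spread over 2.13 log2 units while the CC arrays spread over 0.67. PDIA3 (ERp57, the isomerase that works with calreticulin on glycoproteins) was at 2.19, 2.96, 2.18, and 2.77 in CC and at 0.96, 3.26, 1.63, and 1.73 after IVM. On 3 of the 4 arrays after IVM it was below every CC array, and on replicate 2 it was above all of them. Its mean difference was -0.63 with a pooled SD of 0.74, -0.89 within row 1 and -0.37 within row 2. Without replicate 2 after IVM the difference was -1.08 and the groups no longer overlapped.

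DNAJB9 (ERdj4, a J-domain partner of HSPA5) was at 0.05, 0.60, 0.13, and 0.36 in CC and at 3.64, 1.70, 2.73, and 4.42 after IVM. Its mean difference of 2.84 (7.16-fold) was the largest of the 10, with an SD after IVM of 1.17 against 0.25 in CC. HERPUD1, a membrane protein of the ERAD complex, was at -0.30, 1.65, 0.06, and 1.02 in CC and at 0.62, -1.06, 0.63, and 1.80 after IVM. Its means were 0.61 ± 0.89 (SD, n = 4) and 0.50 ± 1.18, and the difference of -0.11 was far smaller than either spread. It was 0.74 within row 1 and -0.96 within row 2, so even its direction was not the same in both rows.

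The 3 transcription factors were all higher after IVM. XBP1 was at 3.61, 4.42, 3.76, and 4.18 in CC and at 6.88, 5.88, 6.26, and 6.78 after IVM, a difference of 2.46 (5.49-fold) with the groups 1.45 apart. ATF4 was at 5.66, 6.26, 5.72, and 6.19 in CC and at 7.69, 8.36, 7.69, and 7.97 after IVM, a difference of 1.97 (3.91-fold), and it was 2.00 and 1.94 within the rows. After quantile normalization that of ATF4 was 1.26 and that of XBP1 was 1.93. The difference of XBP1 was 2.89 within row 1 and 2.03 within row 2.

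DDIT3 was the least even of the 8. Its CC arrays were at 0.69, 3.06, 1.18, and 2.73 and those after IVM at 5.15, 3.34, 3.94, and 3.99. Only 0.28 separated the highest CC array from the lowest after IVM, both of which are replicate 2, and with the deposited table the groups overlapped. The mean difference of 2.19 was made of 3.61 within row 1 and 0.77 within row 2.

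The CC arrays that had not been cultured belong to the contrast that chose the 10 genes, so their order is given as a description only. Replicate 2 was the highest CC array for 10 of 10 genes, while it was the highest for 23.7% of the 12835 genes above background and for 33 of 119 other genes of the pathway. Among those 119, replicate 4 was the highest more often, for 45. In 8 genes both CC arrays of row 2 were above both of row 1, by 1.96 on average for DDIT3, 1.45 for HERPUD1, and 0.83 for HSPA5. Only in CALR and PDIA4 was this not so. The share of all genes with this order of rows was not determined, so nothing is read from the count. Among the genes outside the 10, PPP1R15A (GADD34, which ends the translation block) was at -0.11, 2.91, 1.53, and 2.47 on CC replicates 1 to 4, and ATF3 (a stress-induced factor) at 2.73, 4.51, 3.31, and 4.20. Other genes did not follow this order. EIF2AK3 was at 0.74, 0.59, 0.49, and 0.53 on the same arrays, and TRIB3 and SESN2 were lowest on replicate 2, at -3.70 and -3.34. These genes outside the 10 were chosen after their values were seen.

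After IVM the order of the arrays was another. Replicate 4 was the highest for 6 genes (HSPA5, HSP90B1, CALR, PDIA4, DNAJB9, and HERPUD1), replicate 1 for XBP1 and DDIT3, and replicate 2 for ATF4 and PDIA3. Replicate 4 was also the highest for 79 of the 119 other pathway genes, against 19.7% of all genes above background. The lowest array was replicate 2 for 4 genes (DNAJB9, HERPUD1, XBP1, and DDIT3) and replicate 1 for 4 (HSPA5, PDIA3, PDIA4, and ATF4). For HSP90B1 and CALR it was replicate 3.

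Cell type markers differed between the cumulus groups too. The summed oocyte markers were at 0.41, -0.12, -0.83, and 1.59 on the CC arrays and at -1.13, -2.17, -2.64, and -0.84 after IVM, and 4 of the 6 (ZP2, ZP3, ZP4, and NLRP5) were lower after IVM by limma. Of the 4 leukocyte and blood markers all were called higher after IVM, but PTPRC was above background on no array of either group and HBB on 2 arrays after IVM, while CD14 and CD68 were above background on all 8. Their summed level ran from -2.94 to -1.34 in CC and from -0.53 to 0.91 after IVM. Of the 4 granulosa markers, FSHR, CYP19A1, and AMH were called lower after IVM (-1.25, -1.26, and -1.04, limma, adjusted p = 0.028, 0.032, and 0.018) and INHBA higher (1.07, adjusted p = 0.0011). On CC replicate 2, where the 10 genes were highest, none of the oocyte, leukocyte and blood, and granulosa sums was the highest of the 4. The granulosa sum, made up mostly of INHBA, hardly varied among the CC arrays (8.57 to 8.62). The part of the mix of cells in the order of the CC arrays, or in the differences of the 10 genes after IVM, was not tested.

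The other genes of the pathway were not used to choose the 10 and were tested with limma. Their lists were, however, drawn up with earlier results of these data known, so the shares called are not independent of these data. Of 130 genes in 5 lists, 127 were on the array (CEBPB, SLC7A5, and BBC3 were not). After IVM, 60 were higher and 7 lower at an adjusted p under 0.05, and 60 did not pass. Over all 22548 genes the same test called 30.3% higher and 15.5% lower. Among the 12835 genes above background in both groups it called 22.0% higher and 22.4% lower, and among the 119 pathway genes above background in the same way 46.2% and 5.88%. Of all calls, 66.1% were higher, and this split depends on the scaling, with 43.2% after quantile normalization and 83.3% with normexp background correction. The median of the other pathway genes, 0.74 against 0.37 for all genes, was 0.54 against 0.01 after quantile normalization. Within row 1 the test, with 2 arrays a group, called 35 pathway genes higher, and within row 2 it called 18.

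**Figure D2:**
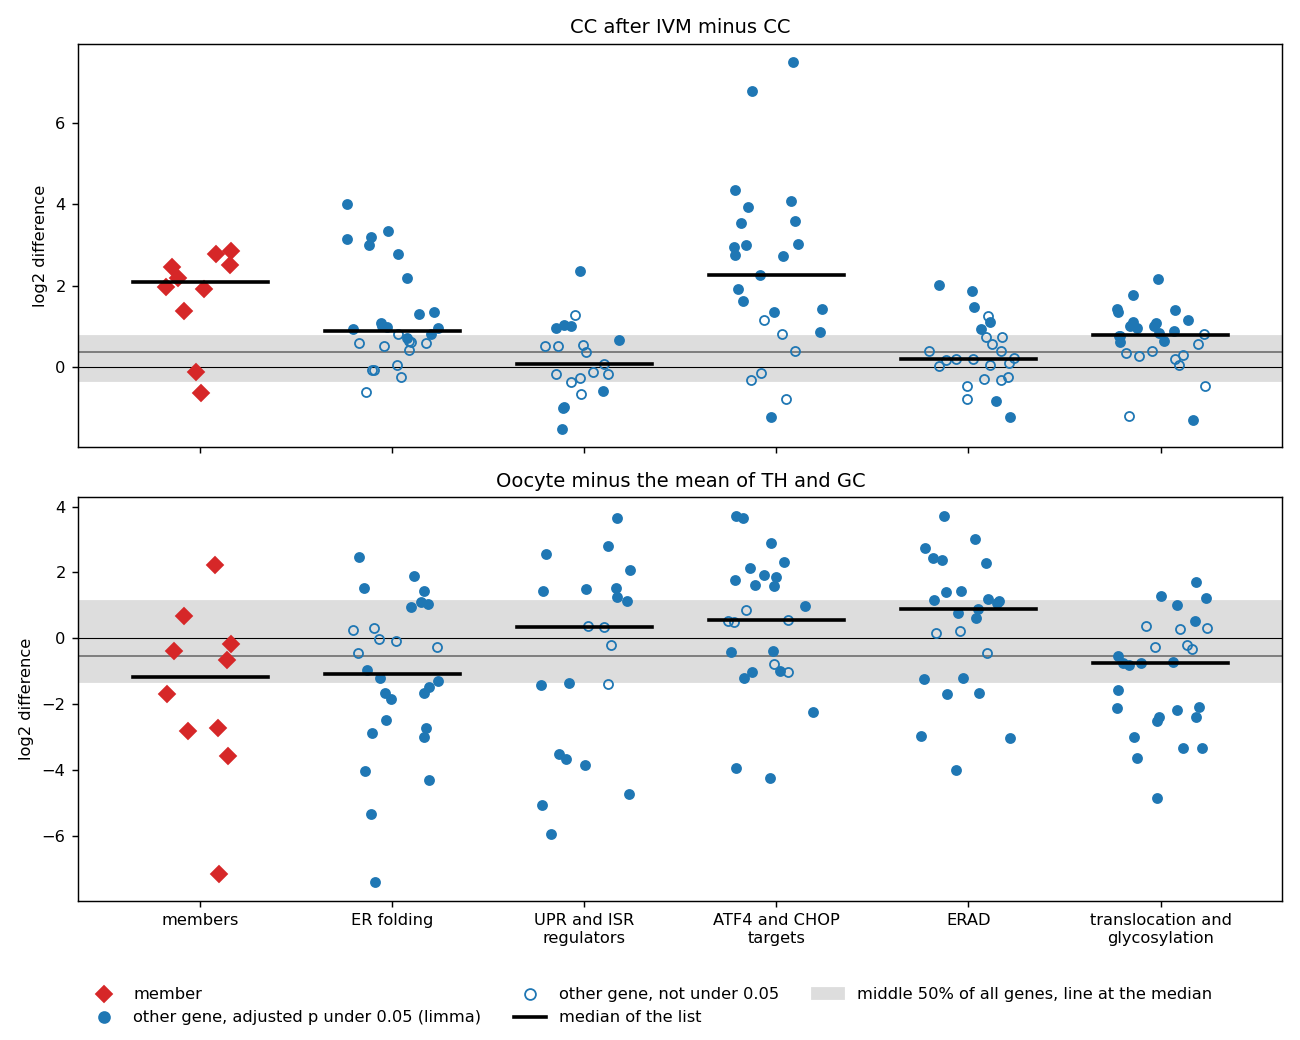
Log2 difference of each gene for CC after IVM minus CC (upper panel) and for OO minus the mean of TH and GC (lower panel), for the 10 genes and 5 lists of other genes. Filled circles passed limma at an adjusted p under 0.05, thick lines are list medians, and the grey band holds the middle 50% of all genes. In the upper panel the ATF4 and CHOP targets have a median of 2.26 and reach 7.48, and in the lower panel every list holds genes above and below the band.

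The targets of ATF4 and CHOP had the largest differences. Of 25 on the array 18 were higher, 1 was lower, and 6 did not pass, with a median of 2.26 against 0.37 over all genes. TRIB3, a pseudokinase induced by CHOP, was at -3.43, -3.70, -2.87, and -2.97 in CC and at 3.70, 4.16, 4.58, and 4.52 after IVM. The difference of 7.48 (standard error 0.27, 179-fold, limma, adjusted p = 7e-07) was the largest in the 5 lists. PSAT1, a serine synthesis enzyme, rose by 6.77 (0.34, adjusted p = 3.2e-06), and JDP2, a bZIP transcription factor, by 4.34 (0.22, adjusted p = 3.3e-06). SLC7A11, the cystine transporter, was above background on no CC array and on all 4 after IVM and was at least 9.41-fold higher. Among the enzymes of amino acid and one-carbon metabolism in the list, CTH (3.92), MTHFD2 (3.59), ASNS (2.73), ALDH1L2 (1.62), and PHGDH (1.42) were also called higher and SHMT2 was not called (-0.31, adjusted p = 0.23). Of its tRNA synthetases, GARS1 (3.55), SARS1 (2.99), and AARS1 (1.91) were called higher and WARS1 was not called (0.82, adjusted p = 0.099). DDIT4, which restrains mTORC1, was the only gene of this list called lower, by 1.23 (0.20, adjusted p = 0.0014). CHAC1 and ATF3 did not pass (-0.15 and 0.39, adjusted p = 0.78 and 0.42). STC2 was called higher, but it was above background on no array of either group.

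**Figure D3:**
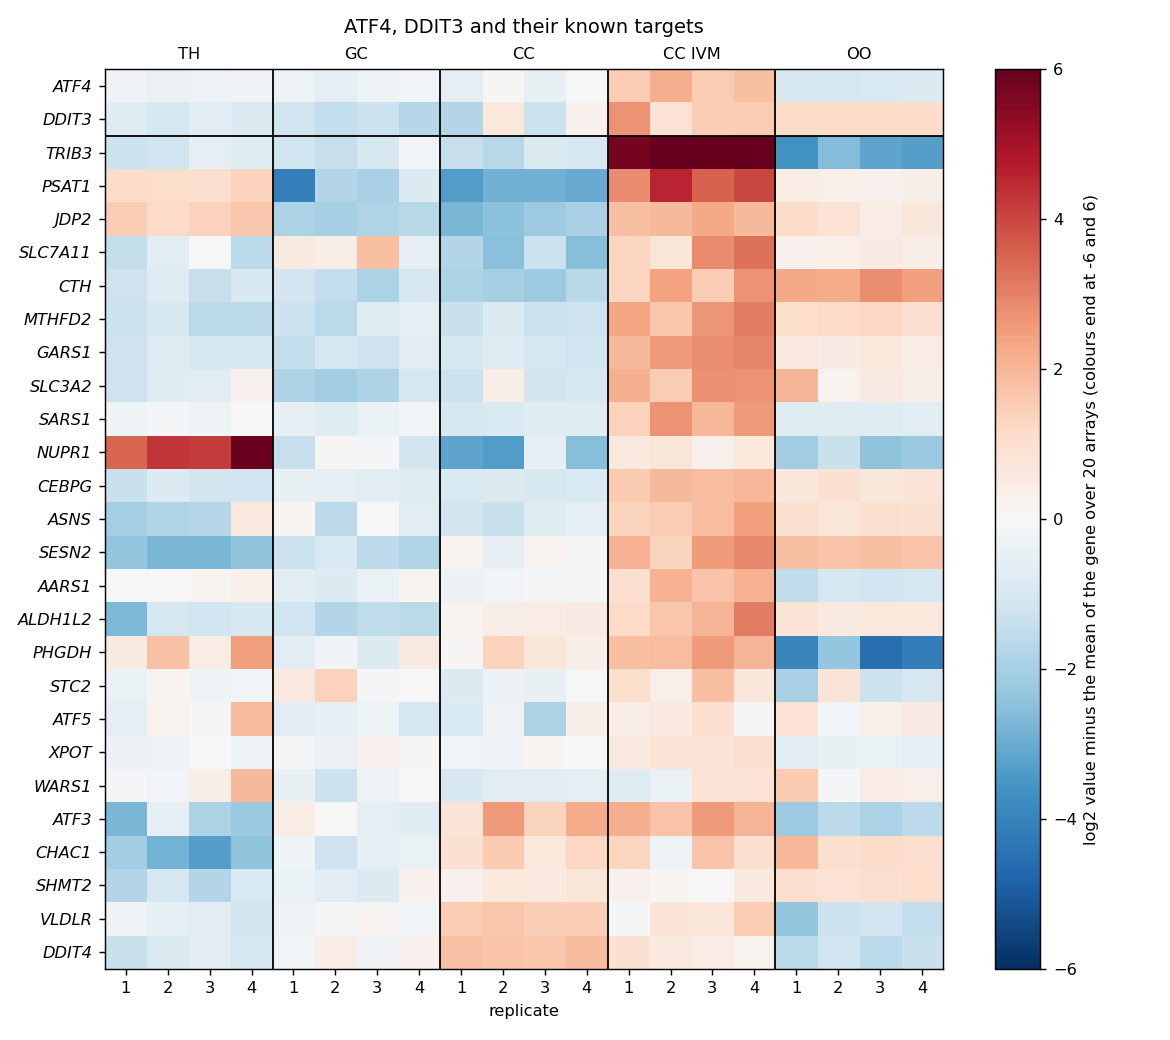
Value of ATF4, DDIT3, and the 25 ATF4 and CHOP targets on each of the 20 arrays, as log2 value minus the mean of that gene over all arrays (red higher, blue lower), with targets ordered by their difference after IVM. TRIB3 and PSAT1 stand out on all 4 arrays of CC after IVM, NUPR1 is highest on the TH arrays, and the OO arrays are low in TRIB3 and PHGDH but high in CTH and SESN2.

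Of the 28 genes of ER folding, 16 were higher after IVM and none was lower (0 by limma at the adjusted threshold), with a median of 0.88. SDF2L1, which assists the HSPA5 cycle, was at -0.88, -0.50, -0.83, and -0.31 in CC and at 2.24, 3.93, 3.03, and 4.28 after IVM. It rose by 4.00 (standard error 0.41, limma, adjusted p = 9e-05). Of the 4 J-domain proteins in the list, which are partners of HSPA5, DNAJB11 rose by 3.34 (0.39, adjusted p = 0.00018), DNAJC3 by 3.19 (0.36, adjusted p = 0.00017), and DNAJC1 by 0.71 (0.24, adjusted p = 0.036), and DNAJC10 did not pass (0.43, adjusted p = 0.15). The protein disulfide isomerase genes P4HB and PDIA5 did not pass (0.59 and 0.61, adjusted p = 0.061 and 0.082), nor did ERP29 (-0.61, adjusted p = 0.052), while PDIA6 did (0.99, adjusted p = 0.015). CANX (calnexin, the membrane counterpart of calreticulin) did not pass either (0.53, adjusted p = 0.064).

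Of 21 regulators of the response 5 were called higher and 3 lower, against 30.3% and 15.5% of all genes, and the median difference was 0.09. PPP1R15B, which recruits the phosphatase of eIF2α, rose by 2.37 (standard error 0.38, limma, adjusted p = 0.0011), and EIF2S1, which is eIF2α itself, by 1.04 (0.20, adjusted p = 0.003). MBTPS1, a protease that cuts ATF6, fell by 1.51 (0.19, adjusted p = 0.0003). The sensors were less clear. EIF2AK3 differed by 0.51 (adjusted p = 0.13) and ATF6 by 1.29 (adjusted p = 0.057), and ERN1 and CREB3L1, called higher by 1.00 and 0.97, were above background on no array of either group.

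Of 25 genes of ERAD 5 were called higher and 2 lower, against the same shares of all genes, and their median was 0.21, against 0.37 over all genes. SELENOS rose by 2.02 (standard error 0.29, limma, adjusted p = 0.00068) and UBE2G2, a ubiquitin-conjugating enzyme, by 1.49 (0.20, adjusted p = 0.00039). NGLY1, which removes sugar chains from exported proteins, fell by 1.22 (0.20, adjusted p = 0.0013). Of the genes for translocation into the ER and for glycosylation, 16 of 28 were called higher and 1 lower, with a median of 0.79. TRAM1 rose by 2.16 (0.31, adjusted p = 0.00067), SEC62 by 1.78 (0.38, adjusted p = 0.0057), and SPCS2, a signal peptidase subunit, by 1.42 (0.27, adjusted p = 0.0031). TRAM1 and SEC62 are membrane proteins that work with the translocation channel.

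**Figure D4:**
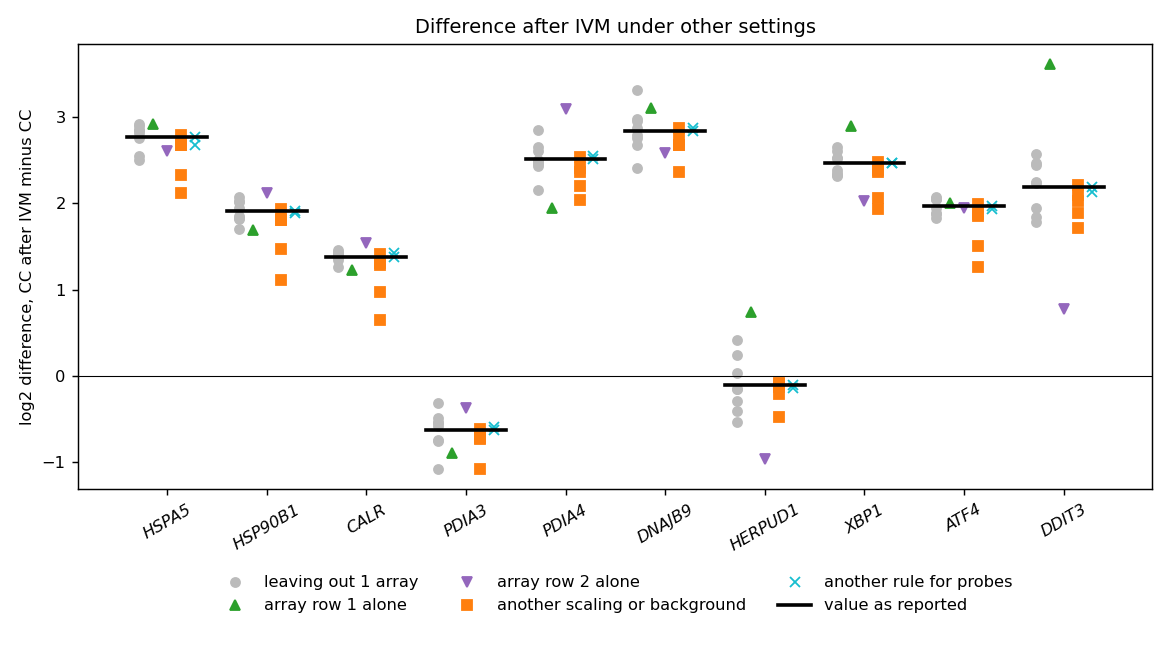
Difference of each of the 10 genes after IVM (CC after IVM minus CC, log2) as reported (black line) and when 1 array was left out, within each array row, with another scaling or background correction, and with another rule for the probes. The 8 genes with separate groups stay above 0 at each point shown, DDIT3 has the widest gap between rows (3.61 and 0.77), and HERPUD1 lies on both sides of 0.

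In TH, GC, and OO the 10 genes were tested, since the contrast that chose them does not use these 12 arrays. The genes were still chosen with earlier results of these data known, and the p-values do not allow for that. The F-test of limma over the 3 groups called 9 of the 10 genes, all but HSP90B1 (adjusted p = 0.69), against 68.3% of all genes. An ordinary analysis of variance over the same 3 groups called 9 as well (the methods ran one over TH, GC, CC, and OO, and CC were left out here). OO differed from TH in 8 genes and from GC in 8, while of all genes 31.8% were higher and 30.7% lower in OO than in TH, and 29.9% higher and 34.1% lower than in GC. Compared with the mean of TH and GC, OO was lower in 7 genes (of which ATF4 and XBP1 turned with another scaling) and higher in 2, with 35.2% and 32.2% of all genes called lower and higher. The share of genes called was thus high everywhere in this comparison. The median difference of the 10 genes was -1.17 and that of all genes -0.54.

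The largest difference was that of DNAJB9, at 0.75, 0.72, 0.50, and 0.88 in TH, 0.34, 0.10, 0.68, and 0.62 in GC, and -7.41, -6.31, -6.67, and -5.86 in OO. It was above background on all TH and GC arrays but on only 2 of the 4 OO arrays, and was at least 85.8-fold lower in OO than in the mean of TH and GC (limma, adjusted p = 1.3e-10).

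HSPA5 was at 2.76, 3.16, 2.81, and 3.63 in TH, 3.16, 2.96, 3.17, and 3.96 in GC, and -0.28, 0.60, 0.68, and 0.58 in OO. The OO arrays were all below the others, with a mean difference of -2.81 (standard error 0.26, 7.01-fold, limma, adjusted p = 7.3e-07). PDIA3 was lower in OO (-3.57 ± 0.27 SE, 11.9-fold, adjusted p = 1.1e-07), with OO arrays between -1.99 and -1.05 and the others between 1.50 and 2.89. CALR (-1.69 ± 0.18 SE, adjusted p = 2.8e-06) and HERPUD1 (-2.73 ± 0.38 SE, adjusted p = 3.3e-05) were lower too, both without overlap between OO and the other groups. These 5 calls held under every scaling, within each slide, and within each row.

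DDIT3 went the other way. It was at 1.70, 1.41, 1.80, and 1.60 in TH, 1.25, 0.98, 1.15, and 0.76 in GC, and 3.62, 3.53, 3.56, and 3.56 in OO. OO was higher by 2.23 (standard error 0.14, 4.7-fold, limma, adjusted p = 1.9e-08). Both probes showed it, by 2.60 and 1.87, and the difference was 2.24 within slide 1 and 2.23 within slide 2.

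In the other 4 genes the call or the direction depended on the scaling or on the arrays used. PDIA4 was higher in OO by 0.68 (standard error 0.22, limma, adjusted p = 0.017), by 1.01 within slide 1 and 0.36 within slide 2 (adjusted p = 0.023 and 0.3), and by 0.89 and 0.48 within rows 1 and 2 (0.0081 and 0.39). Without OO replicate 1 its adjusted p was 0.052. ATF4 (-0.65 ± 0.13 SE, adjusted p = 0.00073) and XBP1 (-0.38 ± 0.13 SE, adjusted p = 0.021) were lower in OO, but with the deposited table both were higher in OO, by 0.08 and 0.32, as was ATF4 after quantile normalization, by 0.20. Within slides ATF4 differed by -0.66 and -0.63 (adjusted p = 0.06 and 0.029), and XBP1 by -0.35 and -0.40 (0.24 and 0.13). XBP1 also lost its call without OO replicate 1 (adjusted p = 0.054) and without OO replicate 4 (0.06). HSP90B1 was at -0.16 (0.20, adjusted p = 0.46), and after quantile normalization and with the deposited table it was higher in OO by 1.37 and 0.53 (adjusted p = 2.5e-05 and 0.027). No direction is therefore given for HSP90B1, ATF4, or XBP1 in OO.

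TH and GC differed in 3 of the 10 genes, against 10.8% of all genes called higher and 11.9% called lower in TH. XBP1 was higher in TH, with TH arrays at 4.29, 4.33, 4.38, and 4.27 and GC arrays at 3.54, 3.51, 3.69, and 3.91, which is 0.66 apart on average (limma, adjusted p = 0.0066, standard error 0.15). DDIT3 was higher in TH by 0.59 (0.16, adjusted p = 0.018). HERPUD1 was lower in TH (-1.46 ± 0.44 SE, adjusted p = 0.031), with TH arrays at -2.05, -1.91, -1.38, and -0.73 and GC arrays at -0.22, -1.37, 0.89, and 0.47. With the replicate number as a block in the fit of TH, GC, and OO, the adjusted p was 0.016, 0.026, and 0.02. With 2 arrays a group, XBP1 and DDIT3 passed in neither slide, at 0.79 and 0.52 for XBP1 and 0.44 and 0.75 for DDIT3, and HERPUD1 passed in slide 2 only, at -1.18 and -1.73. HERPUD1 lost its call when any of 6 arrays was left out (TH replicates 1, 2, and 3 and GC replicates 1, 3, and 4), with an adjusted p of 0.057 to 0.09, and DDIT3 without TH replicate 1 (0.052) or TH replicate 3 (0.059). PDIA4, not called at 0.63 (adjusted p = 0.11), was called without GC replicate 4 (0.035).

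In the order of the groups, immature CC are given as a description only. HSPA5 was lowest in OO at 0.40 ± 0.46 (SD, n = 4), followed by TH at 3.09 ± 0.40, GC at 3.31 ± 0.44, and CC at 4.62 ± 0.58. TH and GC did not differ beyond their spread (limma, adjusted p = 0.68). HSP90B1 and CALR were also highest in CC of the 4 immature groups with this scaling, at 6.99 and 7.18. In neither of them did TH and GC differ (limma, adjusted p = 0.83 and 0.76). Since the level of HSP90B1 in OO depended on the scaling, its order between OO and CC is not settled here. DDIT3 was highest in OO, at 3.57 ± 0.04, where its spread was the smallest, and next in CC, at 1.92 ± 1.16, where it was the largest. HERPUD1 was lowest in OO at -3.52 ± 0.18, followed by TH at -1.52 ± 0.60, GC at -0.06 ± 0.99, and CC at 0.61 ± 0.89. With this scaling XBP1 was highest in TH, and OO and GC did not differ in it (limma, adjusted p = 0.78).

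Of the 127 other pathway genes, 47 were higher and 55 lower in OO than in the mean of TH and GC, and among the 116 above background in all 3 groups the shares were 37.9% and 44.8%, against 39.5% and 41.3% of the 12006 genes of the array above background in that way. The lists differed in their medians. Among the ER folding genes 15 of 28 were lower and 7 higher (median -1.09), and among the genes of translocation and glycosylation 17 of 28 were lower and 5 higher (median -0.76). Among the ERAD genes 15 of 25 were higher and 7 lower (median 0.89).

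FKBP11, a prolyl isomerase of secretory cells, was at 3.29 ± 0.23 (SD, n = 4) in TH, 1.69 ± 0.20 in GC, and -4.91 ± 0.42 in OO, so that OO differed by -7.40 (limma, adjusted p = 1.3e-11, standard error 0.20). FKBP14, another prolyl isomerase, and MANF, an ER-resident factor that binds HSPA5, were lower in OO, at differences of -5.33 and -4.31. Among the regulators, TMBIM6, CREB3, and MBTPS2 were lower (-5.92, -5.07, and -4.73). The lectin OS9 and SELENOS, both of ERAD, were also lower (-3.99 and -3.03), as were SSR4, MOGS, and GANAB, of translocation and glycan trimming (-4.84, -3.64, and -3.34). All of these had an adjusted p of 7e-06 or less.

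Other genes were higher in OO. NGLY1 was higher by 3.72 (standard error 0.17, limma, adjusted p = 1.1e-09), SESN2, an ATF4 target that senses leucine, by 3.72 (0.18, adjusted p = 1.6e-09), CTH by 3.66 (0.20, adjusted p = 5.7e-09), and CHAC1, which degrades glutathione, by 2.90 (0.29, adjusted p = 1.4e-06). NGLY1 fell after IVM and was higher in OO, and SELENOS rose after IVM and was lower in OO. Of the 60 genes that were higher after IVM, 22 were lower and 23 higher in OO. Over all genes of the array, 35.2% were lower and 32.2% higher in OO, so nothing is read from these counts.

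The genes of most similar pattern over all 20 arrays were found among the 9534 genes above background on every array, by the root mean square difference of log2 values centred on the mean of each gene. All of these patterns hold the difference after IVM that chose the genes. For HSP90B1 and XBP1 they were ETF1 (0.41 and 0.39) and ATF4 itself (0.41 and 0.40), followed by SIK3 and FAM126A. For PDIA4 the nearest was DNAJC3 (0.48), followed by PAK1 and RNF128, and for HSPA5 it was MANF (0.60), followed by FGD5 and SLC38A5. CALR lay nearest to GLA (0.24), SLC31A1, and AZIN1, and ATF4 to L3MBTL3 (0.26), a transcript without a name here, and MAL2. DDIT3 lay nearest to NAMPT (0.46), BRIX1, and SIAH2, and PDIA3 to C29H11orf68 (0.44), C16H1orf174, and BLOC1S4. HERPUD1 lay nearest to ALDOA (0.62), CRELD1, and FAM3A. The nearest to DNAJB9 was further off, H2AZ1 at 0.84, followed by PLPP3 and SCARNA13. Between members, XBP1 and ATF4 were the closest pair (0.40).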

How the data were processed

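The authors deposited, for each of 20 arrays of 1 colour, the scanner output of Agilent Feature Extraction 10.7.3.1 (probes placed on UMD 3.1), in which each spot has a processed intensity after background subtraction, with marks for signal above background, saturation, and outliers. They also deposited a table of log2 values, each column of which was log2 of the median spot signal minus the median of the array, within 5.0e-09. Its scale and centring are thus known.

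Of 61325 probes, names of 39782 were current symbols, and 3016 and 1163 were updated by accession or synonym through a table of RefSeq genes. A further 734 without a name were named by accession, and the rest kept the name of the array. Outlier-marked spots (at most 23 per array) were left out, and no array had a saturated spot (0). The 75th percentile of log2 processed intensity was subtracted, and the median over the probes of a gene was taken, since the methods used the median over spots. The fits used lmFit and eBayes of limma (3.58.1, under R 4.3.3, files read with data.table, version 1.17.8), with Benjamini–Hochberg adjustment across the 22548 genes and a threshold of 0.05. CC after IVM and CC were fitted alone (8 arrays), and TH, GC, and OO together (12 arrays). A gene above background on fewer than 3 of 4 arrays of the dimmer group has only a limit, for which the brighter group's mean was set against, per array, the higher of the lowest signal above background and the measured value. Tables were plotted with Python 3.11.15, numpy 2.4.6, pandas 2.3.3, and matplotlib 3.10.9.

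The 10 genes and the lists of other genes were chosen with earlier results of these data known. Besides the 10, the text names, from each list, up to 3 genes with the largest differences among those past the threshold, without overlap, and above background on at least 3 of 4 arrays of the groups compared, the 3 nearest patterns of each of the 10, and markers. Others are named as examples, and were chosen after their values were seen. Precision is limited by 4 arrays a group. Since nothing says how animals were divided among replicates, p-values measure the spread between these samples. The fits were tested on simulated data.

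Same-numbered samples of TH and GC deviated together (correlations of 0.196, 0.32, 0.387, and 0.442 over 9534 genes). They also shared the slide and the array row, so a common source and a common position cannot be told apart. The replicate number was used as a block in an alternative fit over TH, GC, and OO. No positive correlation was seen between same-numbered arrays of CC and CC after IVM (-0.09, -0.185, -0.224, and -0.025), which lay on different slides.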

Additional observations from a re-analysis of the deposited data

Results flagged for a closer look

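In groups of 4 arrays, a value was picked out where its gap to the next array, as a share of the range of the group, passed Dixon's critical value at 95%. Among 125 groups examined 6 had such a value, and chance alone gives about 1 in 20. Of the 10 genes, this was so for HSPA5 on replicate 4 of CC after IVM, at 8.04 (the others between 7.12 and 7.25), and on OO replicate 1, at -0.28 with the others between 0.58 and 0.68. On the same array after IVM, replicate 4, DNAJC3 was at 6.02 with the others between 4.29 and 4.51. CHAC1 on OO replicate 1 was at -1.30 (the others between -2.33 and -2.22). On TH replicate 4, MOGS was at -0.32 (the others between -2.67 and -2.53) and SSR4 at 5.43 (the others between 3.78 and 3.95).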

How the results depend on the processing

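Of the 10 genes, the 8 that were higher without overlap after IVM were 6 after quantile normalization (without HSP90B1 and CALR), 7 with the deposited table (without DDIT3), 9 within array row 1 (with HERPUD1), and 8 under every other alternative run. The number that were lower without overlap was 0 except within array row 1 (1 gene, PDIA3) and without replicate 2 of CC after IVM (1 gene, PDIA3), a range of 0 to 1 on leaving out 1 array. Array rows were added as an alternative after the data were seen.

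The other pathway genes called higher after IVM (60) were 35 within row 1 and 18 within row 2, and those called lower (7) were 13 with normexp, 22 with the deposited table, 15 with the slide as a random block, 2 within row 1, and 1 within row 2. The cause was not tested beyond the smaller number of arrays in a row. Over all genes, calls higher after IVM (6823) were 2753 after quantile normalization, 14713 with normexp, 3258 with the filter on dim genes, 4152 with the replicate block, 10318 with the slide as a block, and 1868 and 1248 within rows 1 and 2, and calls lower (3505) were 1684 and 1277 within the rows. Leaving out 1 array gave 3710 to 7606 calls higher, with 3710 without CC replicate 1, 3819 without CC replicate 3, and 4189 without replicate 4 of CC after IVM.

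In OO, the genes of the 10 called higher (2) were 1 with the percentile over probes above background on all arrays, within slide 2, within row 2, and without OO replicate 1 (1 to 2 on leaving out 1 array). Over all genes, calls lower in OO (7945) were 14923 with normexp, 12329 with the deposited table, and 5124 within row 2. Calls higher were 47.7% of all calls in OO, and 26.0% with normexp, 36.6% with the percentile over probes above background, and 38.2% with the deposited table. HSP90B1 in OO turned to 1.37 after quantile normalization, 0.05 with the array median, and 0.53 with the deposited table, XBP1 to 0.32 with the deposited table, and ATF4 to 0.20 after quantile normalization and 0.08 with the deposited table. OO differed from TH in 8 of the 10 genes, and in 5 within row 2. TH differed from GC in 3, in 1 with all 20 arrays in 1 fit, 0 within slide 1, 1 within slide 2, 0 within row 2, and 1 to 3 on leaving out 1 array (1 without TH replicate 1 or TH replicate 3). Within slide 2, HSP90B1, CALR, and ATF4 in TH against GC turned to -0.19, -0.18, and -0.05, and on leaving out 1 array they ranged from -0.05 to 0.33, from 0.00 to 0.32, and from -0.03 to 0.11. None of these 3 was called. The F-test called 108 other pathway genes, and 71 within row 2.

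With the replicate number as a block, the calls of the 10 genes in TH, GC, and OO were all kept, and none was added. Arrays of one slide had a consensus correlation of -0.261 in the cumulus groups, and the slide of CC after IVM cannot be told apart from the culture.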
